A study of Mus musculus with 9 samples.

Results

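The apolipoprotein L (Apol) genes analysed here were 6 members of a mouse gene family that interferons can induce: Apol6, Apol7a, Apol9a, Apol9b, Apol10a and Apol10b. They were chosen by name, as the rows whose Ensembl identifier carried these symbols, and made up 6 of the 29288 genes in the table. Their messenger RNA was measured by RNA sequencing of intestinal epithelial cells (IECs) taken from crypts of the proximal small intestine and sorted as EpCAM+ and CD45-, CD31- and Ter119-. All animals were female wild-type C57BL/6J mice. Those injected intraperitoneally with PBS and sampled after 18 h formed the control group, and those given 2 µg of α-galactosylceramide (αGalCer) were sampled at that time (18h-αGal) or after 72 h (72h-αGal). Each group held 3 mice, with 1 library per mouse. αGalCer is a glycolipid that CD1d presents to natural killer T (NKT) cells, and it activates them to release cytokines, IFN-γ among them. The controls were all sampled at 18 h, so at 72 h the treatment and the time of sampling cannot be told apart.

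Apolipoprotein L proteins bind lipids and can insert into membranes. The founding human protein, APOL1, circulates with high-density lipoprotein and kills trypanosomes by forming pores, and human APOL3, which IFN-γ induces, attacks the membranes of bacteria that have entered the cytosol. Most family members lack a signal for secretion and act inside the cell, and in the mouse the family has expanded into a cluster of closely related copies that lies between Rbfox2 and Myh9 on chromosome 15. In interferon signalling, receptors activate JAK kinases and STAT factors, which induce effector genes through short promoter elements.

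On the RefSeq annotation of build GRCm38.p6, Apol6 (ENSMUSG00000033576) lay at chr15:77045050-77057108, on the far side of Rbfox2 from the others. Apol7a (ENSMUSG00000010601) lay at chr15:77388217-77399110 and Apol9a (ENSMUSG00000057346) at chr15:77403789-77411080. Apol10a (ENSMUSG00000050982) followed at chr15:77476953-77491069 and Apol10b (ENSMUSG00000050014) at chr15:77584154-77598542. Apol9b (ENSMUSG00000068246) closed the series at chr15:77729047-77736382. All are annotated as protein-coding, and each count covers the exons of a whole gene.

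The promoters of the members are shown because the interferon-stimulated response element, the DNA element bound by STAT and IRF factors, can be looked for in them. The RefSeq promoter table (GRCm38.p6) held 5 of the 6 members. Each line gives the 130 bases before and the 20 bases after the start site, 5′ to 3′ on the strand of the gene, and capitals mark matches to GAAANNGAAA on either strand. The windows are chr15:77596106-77596255 (minus strand) for Apol10b, chr15:77476917-77477066 (plus) for Apol10a, chr15:77411061-77411210 (minus) for Apol9a, chr15:77728942-77729091 (plus) for Apol9b and chr15:77399091-77399240 (minus) for Apol7a.
Apol10b: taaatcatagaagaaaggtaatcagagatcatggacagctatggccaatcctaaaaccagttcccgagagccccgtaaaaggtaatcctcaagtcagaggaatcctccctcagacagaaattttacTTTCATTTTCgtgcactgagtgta
Apol10a: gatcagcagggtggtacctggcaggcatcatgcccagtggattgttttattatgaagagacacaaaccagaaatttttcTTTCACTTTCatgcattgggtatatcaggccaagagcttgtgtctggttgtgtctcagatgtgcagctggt
Apol9a: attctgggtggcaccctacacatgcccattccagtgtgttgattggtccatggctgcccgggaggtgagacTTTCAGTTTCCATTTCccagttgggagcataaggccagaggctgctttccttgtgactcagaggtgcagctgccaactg
Apol9b: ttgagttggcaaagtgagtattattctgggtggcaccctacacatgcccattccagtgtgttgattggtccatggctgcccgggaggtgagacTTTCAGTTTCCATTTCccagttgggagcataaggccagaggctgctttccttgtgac
Apol7a: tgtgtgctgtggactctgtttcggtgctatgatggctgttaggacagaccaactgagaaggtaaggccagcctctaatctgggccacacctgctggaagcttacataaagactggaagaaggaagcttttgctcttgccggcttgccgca

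Matches to GAAANNGAAA were present in 4 of these 5 genes. The window of 250 bases before to 50 after the start site held this motif in 3.44% of the 32851 promoters in the table, or in at least 1 promoter of 3.99% of 27025 genes. Apol9a and Apol9b each had 2 matches that overlapped, from base -59 to -44 and from -37 to -22 relative to the start sites shown, and the capitals in their lines are the same letters. Each of these genes has a second listed start site, from which the matches ran from -105 to -90 in Apol9a and from -86 to -71 in Apol9b. The match of Apol10a ran from -51 to -42. That of Apol10b crossed the start site, from -4 to 6. The start sites shown for Apol10b, Apol10a and Apol9b lay inside the intervals given above for these genes and not at their ends. Apol7a had 0 matches in its window. A second motif, TTCNNNGAA, the core of the IFN-γ-activated site, was found in 8.3% of all promoters and, among the members, in Apol10a at base -241. The same search found GAAANNGAAA in Apol7c, Apol7e, Apol11a and Apol11b and not in Apol7b or Apol8. These matches describe letters only, and no binding was measured.

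Several members share sequence, which bears on how their reads could be assigned. The share of 100-base words, the length of the reads, that also occurred in transcripts of another gene (GENCODE vM39) was 34.8% for Apol9b, with Apol9a as the partner, and 11.7% for Apol9a. For Apol10a it was 26.9%, almost all with Gm62754, a transcript that contains the pseudogene Apol10c-ps. In Apol7a the share was 3.03%, in Apol6 1.64% and in Apol10b 0%. A count of Apol10b therefore rests on stretches of that length that no other annotated transcript holds exactly, while reads of Apol9a, Apol9b and Apol10a may have been split or dropped. How the counting treated such reads is not given in the sources used here.

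**Figure D1:**
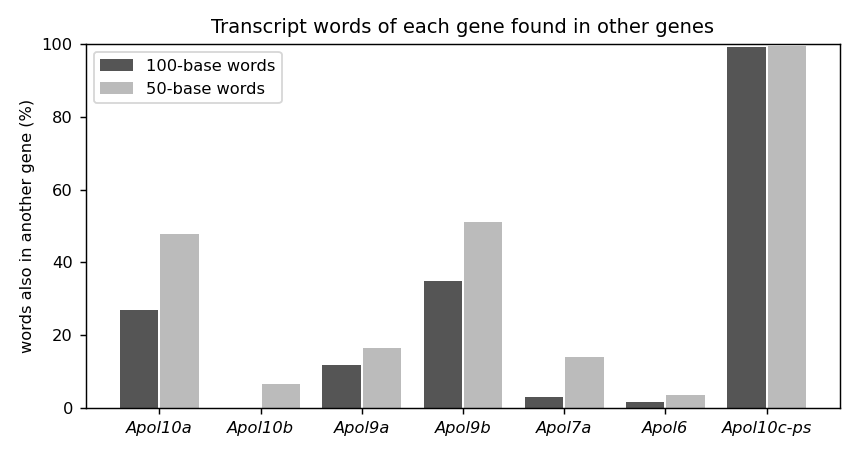
Share of the words in each gene's transcripts that also occur in transcripts of other genes, in percent (vertical axis), for the 6 members and Apol10c-ps, with 100-base words in dark grey and 50-base words in light grey. Apol10b has 0% at 100 bases, Apol9b 34.8% and Apol10c-ps 99.3%.

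Libraries held 8887861 to 32722293 counts, control 3 being the smallest, and control 3 stood apart from the rest on the second principal component (-46.15 against 0.01 to 14.62). The 5 epithelial markers (Epcam, Cdh1, Krt8, Krt18 and Vil1) were at 2479 normalised counts or more in every library. The summed level of 10 leukocyte markers was 176 to 265 in controls, 184 to 240 at 18 h and 209 to 314 at 72 h. The summed level of 3 endothelial markers was 40.5 to 57.1 in controls and 12.6 to 20.7 at 18 h, and that of 3 stromal markers was 21.7 to 35.7 and 1.8 to 13.8. The part of these low traces in the results below was not tested. Normalised counts are counts divided by a size factor per library, and in bulk samples fewer cells that express a gene and less RNA per cell cannot be told apart.

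Levels differed widely between members. Per kilobase of exon, control IECs held 844 ± 522 normalised counts of Apol10a (SD, n = 3), 139 ± 105 of Apol7a, 10.9 ± 15.2 of Apol9a, 10.2 ± 9.18 of Apol9b and 0.701 ± 1.21 of Apol6, and Apol10b was at 0. The ranges of Apol10a and Apol7a did not overlap, nor did those of Apol7a and Apol9a, while Apol9a, Apol9b and Apol6 could not be ordered beyond their spread. At 18 h the levels per kilobase were 1977 ± 528 for Apol10a, 272 ± 37.8 for Apol7a, 35.2 ± 16.9 for Apol10b, 23.2 ± 16.6 for Apol9b, 21.9 ± 0.932 for Apol9a and 2.83 ± 2.31 for Apol6. Apol10b had thus moved from the foot of the order to a place beside the Apol9 genes. Its range, 23.6 to 54.6, overlapped that of Apol9b and lay just above that of Apol9a, 21.3 to 22.9. At 72 h Apol10a (546 ± 195) and Apol7a (94.2 ± 54.9) again led, Apol9b (13.5 ± 11.8) and Apol9a (8.4 ± 8.06) followed, and Apol10b (0.902 ± 1.56) and Apol6 (0) were last.

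**Figure D2:**
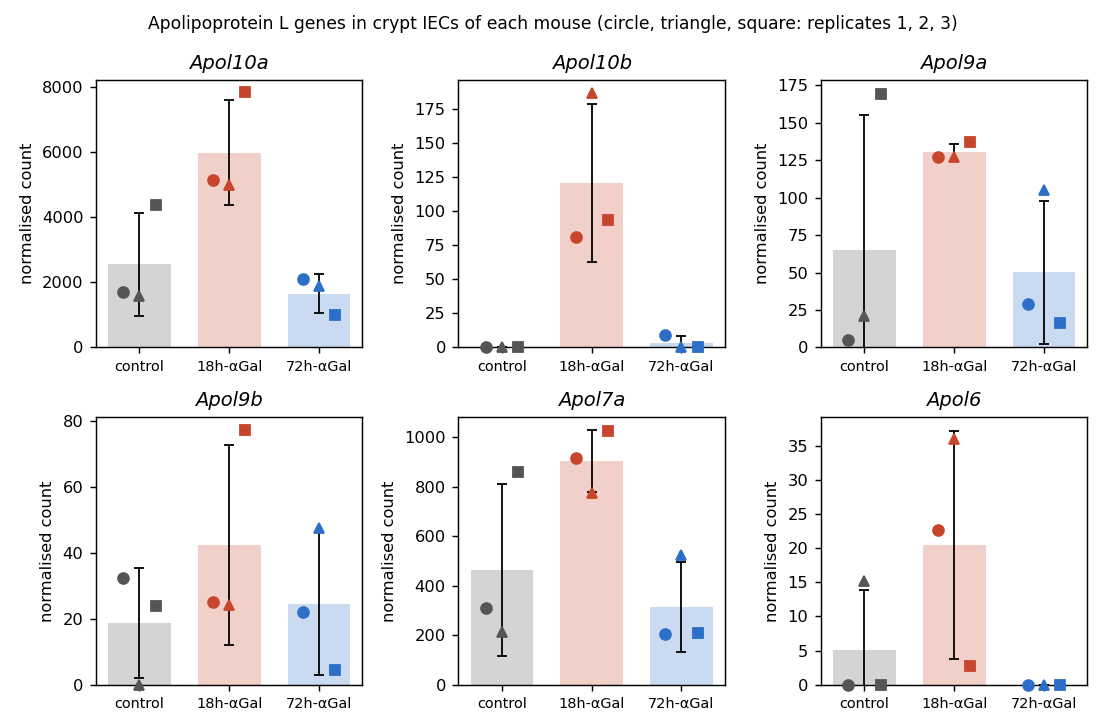
Normalised counts (vertical axis, linear, a separate scale for each gene) of the 6 members in control, 18h-αGal and 72h-αGal IECs. Symbols are single mice (circle, triangle and square for replicates 1, 2 and 3), bars are means and error bars are SD of 3 mice, cut off at 0 where they would go below it. Apol10b is at 0 in all 3 controls and at 80.7 to 187 at 18 h, and control 3 is the highest control for Apol10a, Apol9a and Apol7a.

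The comparison of 18h-αGal with control asks how crypt IECs differ soon after NKT cells are activated, and that of 72h-αGal with both groups asks what remains. A gene was called where edgeR's quasi-likelihood test gave it an adjusted p under 0.05, with Benjamini-Hochberg adjustment across the 18933 genes tested, and such p-values measure the spread between these mice. All 6 members passed the filter on low counts, Apol10b and Apol6 through their values at 18 h. In comparisons with 18 h, the calls and directions of these genes therefore cannot be weighed against the shares and medians of all genes below. Of the members, 1 of 6 was called higher at 18 h (Apol10b), against 3.27% of all genes tested. Against control, 0 of 6 were called at 72 h (0.0264% of all genes were called, all lower), with 1 member at an unadjusted p under 0.05 (5.94% of all genes), and 0 were called by DESeq2 (0.134% of genes) or limma (0.0158%). Unadjusted p-values under 0.05 in edgeR were held by 2 of 6 members at 18 h, against 20.8% of all genes. From 18 h to 72 h they were held by 4 members, against 24.3%. Between 18 h and 72 h, 1 of 6 was called lower (Apol10b), against 6.04% of all genes. The mean fitted difference was positive for all 6 at 18 h, with a median log2 fold change of 1.20 against -0.03 over all genes, and negative for all 6 from 18 h to 72 h, with a median of -1.69 against 0.05. Other tests called more members than edgeR in places. At 18 h limma called 2 (3% of all genes were higher) and DESeq2 1 (3.55%), and between 18 h and 72 h limma called 3 lower (6.03%), DESeq2 2 (6.71%), edgeR without a filter on low counts 2 (4.18%) and edgeR on those 2 groups alone 3 (7.93%). The 3 comparisons share their groups, so these directions are not independent of each other. The mice received no interferon, and whether interferon acted on these genes here was not measured. In the fit of all 9 libraries a rise after αGalCer was called for Apol10b and for none of the other 5, and edgeR called Apol7a, Apol9a and Apol10a only without control 3, while limma called Apol10a with it.

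Apol10b had no counts in controls 1, 2 or 3. At 18 h its normalised counts were 80.7, 187 and 93.8 (128, 208 and 68 raw counts). At 72 h they were 9.27, 0 and 0, from 8 raw counts in 1 mouse. Every 18h-αGal mouse was above every other mouse, and the gene was all but undetected outside that group. Taking a floor of 3 counts per library for the controls, Apol10b was at least 30.8-fold higher at 18 h, and it was called by edgeR (adjusted p = 0.00705), DESeq2 (adjusted p = 0.00911) and limma (adjusted p = 0.0038). Between 18 h and 72 h it fell by 5.39 ± 1.12 on the log2 scale (SE, edgeR's quasi-likelihood test, adjusted p = 0.0134). DESeq2 did not call this fall (adjusted p = 0.131), and neither did edgeR without 18h-αGal replicate 2, the mouse with the highest value (-4.88, adjusted p = 0.068). The 72 h mean, 3.09, lay under the mean floor of the controls, 3.91, although 72h-αGal replicate 1 was above its own floor. No fold is therefore given between control and 72 h.

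Apol10a, the most abundant member, had 1713, 1582 and 4389 normalised counts in controls 1, 2 and 3. At 18 h it had 5148, 4995 and 7844, and at 72 h 2102, 1883 and 985. The 18 h values lay above all controls and all 72 h values, while control 3 came close to the lowest of them. The difference at 18 h was 1.25 ± 0.48 on the log2 scale and was not called by edgeR (adjusted p = 0.207) or DESeq2 (adjusted p = 0.136), but was by limma on the normalised counts (1.36, adjusted p = 0.0422). Between 18 h and 72 h the difference was -1.85 ± 0.49 (edgeR's quasi-likelihood test, adjusted p = 0.0651), which DESeq2 (adjusted p = 0.006) and limma (adjusted p = 0.00602) called. With the counts of Apol10a and Apol10b summed to 1 gene, the 18 h difference was 1.27 (edgeR, adjusted p = 0.196), since Apol10a holds most of the counts.

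Apol10c-ps (ENSMUSG00000116383), a pseudogene of the same branch at chr15:77656048-77656836, is no member but shares sequence with Apol10a. It had 167, 134 and 796 normalised counts in controls, 1510, 1697 and 1776 at 18 h and 255, 174 and 109 at 72 h. Control 3 was again the high control, and the 18 h values overlapped no others. The log2 difference was 2.27 ± 0.71 at 18 h, which edgeR did not call (adjusted p = 0.131) and DESeq2 (adjusted p = 0.0328) and limma (adjusted p = 0.00937) did. By 72 h it fell by 3.22 ± 0.74 from its 18 h level (edgeR's quasi-likelihood test, adjusted p = 0.0418), a call that edgeR lost whenever any of the 6 αGalCer-treated mice was left out. At 100 bases 99.3% of its words also occur in another gene, nearly all of them in Gm62754, which was not analysed here, and at 50 bases 32.3% occur in Apol10a.

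Apol7a, which has other copies in the cluster, was the second most abundant member. It had 312, 215 and 861 normalised counts in controls 1, 2 and 3, then 914, 773 and 1024 at 18 h and 206, 523 and 209 at 72 h. Control 3 lay inside the 18 h range, whereas all 72 h values lay below it. The log2 difference was 1.01 ± 0.56 at 18 h (edgeR's quasi-likelihood test, adjusted p = 0.372) and -1.52 ± 0.57 from 18 h to 72 h (adjusted p = 0.15). The second was called by limma (-1.66, adjusted p = 0.0309) and not by DESeq2 (adjusted p = 0.0832).

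The Apol9 pair encodes proteins known to bind phosphatidylethanolamine. Apol9a had 4.7, 20.9 and 169 normalised counts in controls, the widest relative spread of any member that was detected in every control. At 18 h its values were close together, at 127, 127 and 137, and at 72 h they were 29, 105 and 16.2. Control 3 exceeded all 18h-αGal mice, and the 72 h values all lay below them. The log2 difference was 1.14 ± 1.14 at 18 h (edgeR's quasi-likelihood test, adjusted p = 0.647) and -1.38 ± 1.12 from 18 h to 72 h (adjusted p = 0.522).

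Apol9b had 32.3, 0 and 23.8 normalised counts in controls, 25.2, 24.3 and 77.3 at 18 h and 22, 47.4 and 4.42 at 72 h. These groups overlapped in every comparison, and 18h-αGal replicate 3 alone was high. The log2 differences were 1.16 ± 1.09 at 18 h (edgeR's quasi-likelihood test, adjusted p = 0.609) and -0.76 ± 1.07 from 18 h to 72 h (adjusted p = 0.732). Leaving out 18h-αGal replicate 3 took the first to 0.42 and the second to -0.01. Because the copies share sequence, their counts were also summed, which gave 1.15 ± 0.88 (edgeR, adjusted p = 0.529) and -1.21 ± 0.87 (adjusted p = 0.458).

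Apol6, the member outside the main cluster, was near the limit of detection. It had 0, 15.2 and 0 normalised counts in controls, 22.7, 35.9 and 2.76 at 18 h and 0 in all 72h-αGal mice. Its exons overlap those of Mb, on the opposite strand, by 287 bases. The difference at 18 h was 1.94 ± 1.62 on the log2 scale (edgeR's quasi-likelihood test, adjusted p = 0.559), with overlapping groups. Control 2 held all the control counts, and without it the fitted difference was 7.50 (adjusted p = 0.162), which is no bound. Against the floor of 3 counts per library, the 72 h level was at least 7.05-fold lower than the 18 h mean, a difference that edgeR did not call (adjusted p = 0.0695) and DESeq2 did (adjusted p = 0.0124). This bound concerns the mean only, as 18h-αGal replicate 3, with 2 raw counts, was itself under the floor.

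Counted by overlap alone, 2 members (Apol10a and Apol10b) had all 18h-αGal mice above all controls, against 11.5% of all genes tested. At 72 h, all members but Apol9b had every value below every value at 18 h, 5 of 6 against 16.3% of all genes. Apol10b and Apol6 had passed the filter through their 18 h values, so their separation cannot be weighed against these shares. For Apol6 it rests on 2 raw counts (2.76 normalised) in 18h-αGal replicate 3 against 0 at 72 h. Between 72h-αGal and control, 0 members were separated in this way in either direction (6.36% of genes higher, 6.3% lower). At 72 h the log2 differences from control were -0.60 ± 0.48 for Apol10a, -0.51 ± 0.57 for Apol7a, -0.24 ± 1.15 for Apol9a and 0.40 ± 1.09 for Apol9b, with adjusted p-values from 0.913 to 0.997 in edgeR's quasi-likelihood test. Each of these differences turned positive or negative with the choice of mice, and they were too uncertain to place 72 h above or below control.

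Leaving out control 3 raised the number of members that edgeR called at 18 h from 1 to 4. Its quasi-likelihood test then called 4 of 6 members higher, against 4.25% of the 20326 genes then tested. Apol9a differed by 3.40 ± 0.81 on the log2 scale (adjusted p = 0.0204), Apol10a by 1.86 ± 0.35 (adjusted p = 0.023) and Apol7a by 1.77 ± 0.40 (adjusted p = 0.0255), while Apol10b kept its call (adjusted p = 0.00651). Apol10c-ps differed by 3.46 ± 0.29 (adjusted p = 4.17e-06), and Apol9b and Apol6 were still not called (adjusted p = 0.611 and 0.699). In the later comparison, 72 h against 18 h, 4 of 6 members were then called lower (Apol6, Apol7a, Apol10a and Apol10b), against 7.49% of all genes. The calls of Apol10b and Apol6 cannot be weighed against these shares, since both genes passed the filter through their 18 h values.

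**Figure D3:**
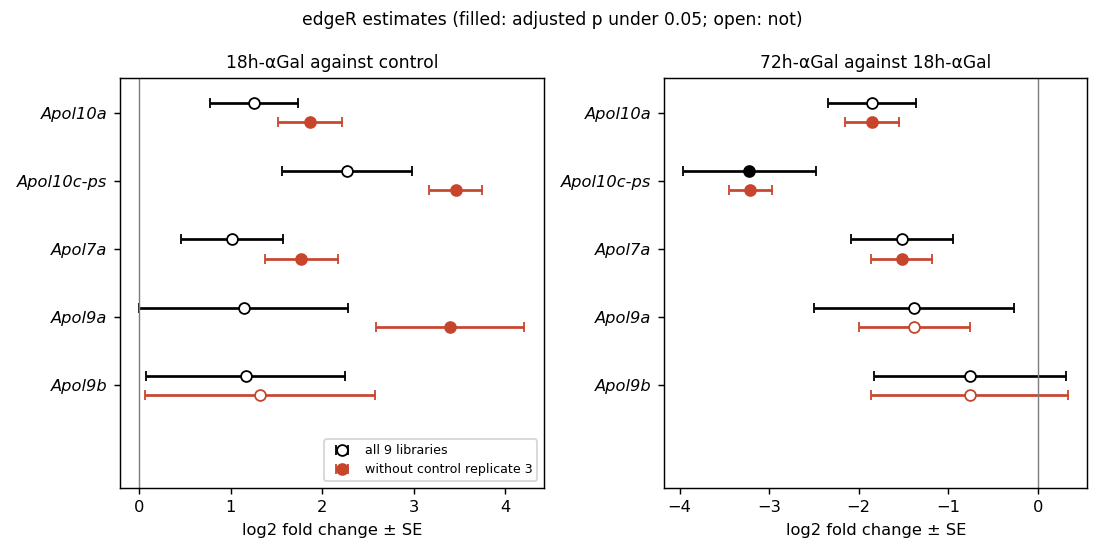
Log2 fold changes (horizontal axes) with SE from edgeR for 4 members and Apol10c-ps, 18h-αGal against control on the left and 72h-αGal against 18h-αGal on the right, with all 9 libraries in black and without control replicate 3 in red; filled symbols have an adjusted p under 0.05. Apol10b and Apol6 are left out because a group at 0 makes their fitted fold depend on the prior count. Apol9a moves from 1.14 to 3.40 at 18 h, and on the right the values hardly move, with smaller errors for all but Apol9b.

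This mouse was measured against the other controls. On the scale of log2(normalised count + 1), control 3 exceeded the mean of controls 1 and 2 by 3.93 for Apol9a, 1.73 for Apol7a and 1.41 for Apol10a, where the 18h-αGal mean exceeded it by 3.55, 1.79 and 1.83. Apol10b, at 0 in every control, did not follow. Over the 6 members the median excess of control 3 was 1.57, over the 19 interferon receptor and signalling genes 0.46, over the 16 interferon-inducible GTPases 0.72 and over all genes tested -0.02. The members' median includes 2.10 for Apol9b, where control 2 was at 0 and control 3 lay below control 1. Control 3 was the highest control for 3 of 6 members, 14 of the 19 receptor and signalling genes, 10 of the 16 GTPases and 36.8% of all genes tested. Control 3 reached or exceeded the lowest 18h-αGal value for 2 of 6 members (Apol7a and Apol9a), for 12 of the 19 receptor and signalling genes, for 0 of the 16 GTPases, for 2 of 5 genes beside the cluster and for 69.6% of all genes tested. Ifit1, an interferon-induced protein that binds foreign RNA and that was picked after its values were seen, had 59.3, 22.8 and 635 normalised counts in the controls and 511, 572 and 691 at 18 h. The summed crypt stem and cycling markers were lowest in control 3 among the controls (36265 against 54335 and 64742), and the summed villus enterocyte markers were highest (64201 against 49687 and 32381). The Paneth cell sum was also lowest there (14224 against 24956 and 62122) and the goblet cell sum highest (94423 against 80504 and 71892). Such sums follow their most abundant genes, and 1 of the 4 stem and cycling genes reached 48687. The part of depth and of this cell makeup in the values of control 3 was not tested.

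**Figure D4:**
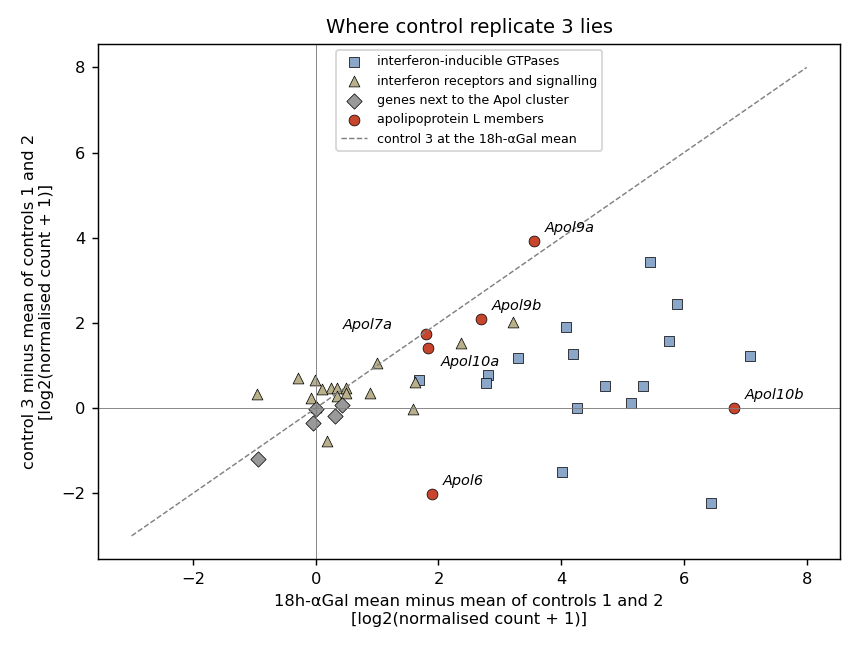
Difference of control 3 from the mean of controls 1 and 2 (vertical axis) against the difference of the 18h-αGal mean from the same mean (horizontal axis), both as log2(normalised count + 1), for the members (red circles), interferon-inducible GTPases (blue squares), interferon receptor and signalling genes (triangles) and neighbouring genes (grey diamonds); both axes use controls 1 and 2, so the points are not independent of each other. Apol7a and Apol9a lie near the dashed line of equal differences (1.73 against 1.79 and 3.93 against 3.55), and Apol10b lies at 0 on the vertical axis and 6.82 on the horizontal axis.

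The rest of the locus was compared with the members. Of 9 other Apol genes listed, 7 were in the table and 2 were tested, Apol10c-ps and Apol8, and Apol7b and Apol7c were not analysed here. Apol8 had 14.1, 44.6 and 14.3 normalised counts in controls, 44.1, 22.5 and 23.5 at 18 h and 37.1, 66.6 and 53 at 72 h, and edgeR called no difference for it at 18 h (0.30 ± 0.62, adjusted p = 0.842). Apol11a reached at most 28.5 normalised counts, in control 3, Apol11b 19.3, in 18h-αGal replicate 3, and Apol7e 20.7, in the same mouse. Among the genes on either side, Rbfox2, Myh9, Txn2, Foxred2 and Eif3d, 0 of 5 were called at 18 h by edgeR's quasi-likelihood test. Their log2 differences ran from -0.34 to 0.40, and 2 were at an unadjusted p under 0.05, against 20.8% of all genes tested. Myh9, the non-muscle myosin heavy chain next to Apol8, differed by 0.02 ± 0.10. Between 18 h and 72 h Txn2, which encodes mitochondrial thioredoxin, fell by 0.52 ± 0.12 on the log2 scale (edgeR, adjusted p = 0.0122), a call lost without 18h-αGal replicate 2 (-0.46, adjusted p = 0.07) or 72h-αGal replicate 3 (-0.44, adjusted p = 0.0749), and the other 4 were not called.

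**Figure D5:**
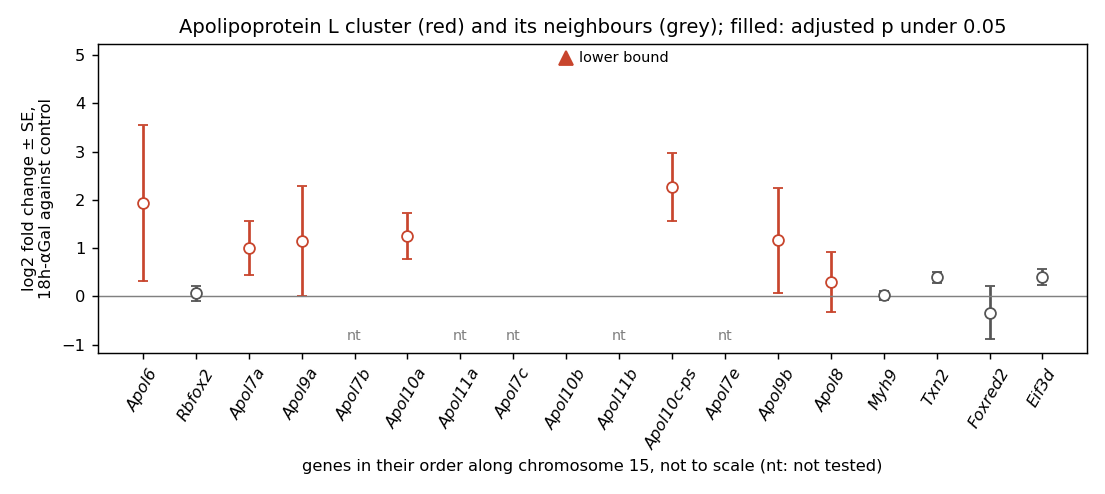
Log2 fold change at 18 h against control with SE from edgeR (vertical axis) for the Apol genes (red) and their neighbours (grey) in their order along chromosome 15, evenly spaced and not to scale; nt marks genes that were not tested, and filled symbols have an adjusted p under 0.05. Apol10b is drawn as a triangle at its lower bound of 4.94, since its controls are at 0, and the neighbours lie between -0.34 and 0.40.

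The genes that carry the interferon signal were read in the same fit. Over all 18933 genes tested, 1128 were called at 18 h and 1936 from 18 h to 72 h, in either direction. Of 19 receptor and signalling genes, 4 rose and 1 fell at 18 h, with a median log2 difference of 0.25. From 18 h to 72 h, 1 rose and 7 fell. The 5 calls at 18 h became 8 without control 3 and 3 when control 1, control 2, 18h-αGal replicate 1 or 18h-αGal replicate 2 was left out, and the 8 later calls became 5 when 18h-αGal replicate 1, 18h-αGal replicate 3 or any of the 72h-αGal mice was left out. Usp18, which damps type I interferon signalling, rose by 2.35 ± 0.56 on the log2 scale (edgeR's quasi-likelihood test, adjusted p = 0.0316), although that call was lost when controls 1 or 2, any 18h-αGal mouse or 72h-αGal replicate 1 was left out, and with no filter on low counts (2.36, adjusted p = 0.0694). Socs1, an inhibitor of JAK kinases, rose by 1.60 ± 0.22 (adjusted p = 0.00106) and Irf8, an interferon regulatory factor, by 1.39 ± 0.20 (adjusted p = 0.00204). Irf1, a factor that binds GAAA repeats, rose by 0.76 ± 0.16 (adjusted p = 0.0135), a call lost without control 1 (0.61, adjusted p = 0.0763) or 18h-αGal replicate 2 (0.74, adjusted p = 0.0643). Socs3, an inhibitor of STAT3 signalling, fell by 1.07 ± 0.25 (adjusted p = 0.0238), a call lost without control 2 (-0.88, adjusted p = 0.0918) or 18h-αGal replicate 1 (-0.86, adjusted p = 0.0803) and with only those 2 groups in the fit (-1.07, adjusted p = 0.0597). The receptors Ifngr1, Ifngr2, Ifnar1, Ifnar2 and Ifnlr1 were not called, with log2 differences from -0.54 for Ifngr2 to 0.41 for Ifnar2. At 72 h against control, edgeR called 0 of the 19, with 0 at an unadjusted p under 0.05, against 5.94% of all genes.

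The interferon-inducible GTPases, which like some apolipoproteins L act on the membranes around intracellular microbes, were read as another family of effectors. Of 16 tested, edgeR's quasi-likelihood test called 13 higher at 18 h and 15 lower from 18 h to 72 h. Over all genes tested, 3.27% and 6.04% were called in these directions. The 13 that rose did so by 2.52 (Irgm1) to 7.05 (Tgtp1) on the log2 scale, and the median of all 16 was 4.60, or 4.34 with Gbp11, at 0 in the controls, set at its lower bound. Iigp1, which coats the vacuoles of parasites, rose by 6.69 ± 0.65 (adjusted p = 0.00201), and Igtp, a regulator of the same GTPase family, by 4.65 ± 0.78 (adjusted p = 0.0226). The call of Igtp at 18 h was lost without control 1, any 18h-αGal mouse, 72h-αGal replicate 1 or 72h-αGal replicate 2 (4.35 to 4.67, with the highest adjusted p = 0.0871) and with only those 2 groups in the fit (4.63, adjusted p = 0.0724). The number called lower from 18 h to 72 h was 9 without 18h-αGal replicate 1, 9 without 72h-αGal replicate 1, 8 without 72h-αGal replicate 2 and 9 without 72h-αGal replicate 3. At 72 h against control edgeR called 0 of 16, with 2 at an unadjusted p under 0.05, against 5.94% of all genes. These values stand beside the members' median of 1.20, and the difference between the lists was not tested.

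The members did not vary as a single block over the 9 mice. Correlations of log2(normalised count + 1), given as a description over 9 libraries that include the group differences, were 0.90 between Apol7a and Apol10a, 0.83 between Apol7a and Apol9a and 0.78 between Apol10a and Apol10b. Apol9a and Apol9b correlated at 0.43, and Apol6 and Apol9b at -0.25. Apol6 and Apol9b held only 94 and 260 raw counts in all libraries together, and the part of counting error in these low correlations was not tested. Among 10904 genes with a mean of at least 100 normalised counts, the gene most like Apol7a was Irf7 (0.985), the master regulator of type I interferon genes, followed by Sprr2a1 (0.982) and Oasl1 (0.980), the latter induced by interferon. Irf7 had 950, 864 and 1888 normalised counts in controls 1, 2 and 3, so it too was high in control 3. Apol10a was most like Lrp10 (0.994), Cltc (0.993) and Psmd8 (0.991), and Apol10b most like Tars1 (0.980), Ints10 (0.980) and Inf2 (0.975). For Apol9a the closest was Ift22 (0.947), for Apol9b Zup1 (0.938) and for Apol6 Acat2 (0.958).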

How the data were processed

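Per the labels and the study's methods, ribosomal RNA was removed, directional libraries were sequenced as 100-base reads, and HISAT2 aligned them. The submitters' processing notes name GRCm38 (mm10), featureCounts, Subread and DESeq2 1.42.0, whereas the methods name GRCm39, so positions are given on GRCm38.p6 from RefSeq. The authors deposited raw counts per gene, and a normalised signal that divides them by a size factor per library. Strand and multi-mapping settings are not given in the sources used here. Of counts from 1 to 49, 66.0% to 71.1% were even in each library, and the cause was not tested. Of 29288 identifiers, 28480 matched GENCODE vM39, which gave symbols, exon lengths and transcript words. Counts were fitted with edgeR 4.0.16 (R 4.3.3): filterByExpr, TMM scaling, a robust quasi-likelihood fit of 3 groups over 9 libraries, and Benjamini-Hochberg adjustment over 18933 genes. The procedure was tested on simulated data. Alternatives were DESeq2 1.42.0, limma 3.58.1 on log2(normalised count + 1), other scaling and filters, summed paralogs, a replicate block and each library left out. Floors of 3 counts per library cover counting error only. Replicates of a group differed by more than sampling noise (chi-square per degree of freedom 13.4 to 43.3). The members, lists and marker genes were chosen with earlier results of these data known. A listed interferon signalling gene is not reported here. Genes named are the members, other Apol genes, up to 4 examples per list (the largest changes that passed), and the 3 genes most correlated with each member; others, such as Irf1, Igtp, Ifit1 and the receptors, were chosen after their values were seen.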

Additional observations from a re-analysis of the deposited data

Results flagged for a closer look

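Effects of αGalCer at 18 h and at 72 h, both measured against the same controls, were compared directly as 72h-αGal against 18h-αGal. By edgeR (quasi-likelihood, adjusted as above), 1936 of the 18933 genes tested differed beyond the adjusted threshold. The 12 genes below are a selection of these. Of the 19 receptor and signalling genes, 1 was called higher and 7 lower, and of the 16 GTPases 15 were called lower. Stat2 (-2.02, adjusted p = 0.028) and Gbp2 (-5.61, adjusted p = 9.73e-05) were among those called and not selected. On the log2 scale the 72 h effect minus the 18 h effect was -5.39 for Apol10b (adjusted p = 0.0134), lower in all 3 mice, and -3.22 for Apol10c-ps (adjusted p = 0.0418). It was -2.97 for Usp18 (adjusted p = 0.00797), -1.43 for Socs1 (adjusted p = 0.00133) and -1.42 for Irf8 (adjusted p = 0.00132). Among the other signalling genes it was -0.77 for Irf1 (adjusted p = 0.00859) and 1.21 for Socs3 (adjusted p = 0.00849). Among the GTPases it was -6.95 for Iigp1 (adjusted p = 0.00132), -4.98 for Igtp (adjusted p = 0.0125), -5.95 for Tgtp1 (adjusted p = 0.000133) and -3.0 for Irgm1 (adjusted p = 2.69e-05), and it was -0.52 for the neighbouring gene Txn2 (adjusted p = 0.0122). The 72 h values of Socs3 all lay above its 18 h values, and those of the other 11 genes all lay below theirs. Over all genes tested, 16.3% were separated downwards in this way. The same values gave the calls by which these genes were chosen, so the separation is no further support. The call of Igtp was lost when any 72h-αGal mouse was left out (-5.09 to -4.79). Groups of 3 mice were not searched for single outlying values.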

How the results depend on the processing

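The 18 h differences of all 6 members stayed positive under every alternative that gave a value. With the paralogs summed, 0 members were called at 18 h and 0 from 18 h to 72 h, since the summed Apol10 gene is carried by Apol10a. At 18 h limma called 2 members, adding Apol10a (1.36). From 18 h to 72 h, 2 members were called by DESeq2 and 2 without a filter on low counts, and 3 were called by limma and 3 with only the 2 groups compared in the fit. Apol10a was called by DESeq2 (-1.86), limma (-1.90) and the fit of those 2 groups (-1.85), and Apol7a by limma (-1.66) and the fit of those 2 groups (-1.52). Apol6 was called by DESeq2 (-6.88) and without a filter (-7.50), both fitted values and no bounds, while Apol10b lost its call in DESeq2 (-5.31). At 72 h against control, Apol9a turned from -0.24 to 0.45 in limma and to 0.30 with the replicate block.

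Leaving out each mouse in turn, members called ranged from 1 to 4 at 18 h, were 0 throughout at 72 h against control, and ranged from 0 (without 18h-αGal replicate 2) to 4 (without control 3) from 18 h to 72 h. At 18 h the log2 difference ranged from 1.29 to 7.5 for Apol6 (the highest, without control 2, is a fitted value and no bound), from 0.42 (without 18h-αGal replicate 3) to 2.02 (without control 1) for Apol9b, from 0.67 to 1.77 for Apol7a, from 0.53 to 3.40 for Apol9a, from 1.0 to 1.86 for Apol10a and from -0.11 to 1.10 for Apol8. At 72 h against control it ranged from -1.10 to 0.25 for Apol7a, from -1.39 to 2.02 for Apol9a, from -0.51 to 1.25 for Apol9b, from -0.85 to 0.02 for Apol10a, from -1.35 to 0.25 for Apol10c-ps, from -1.11 to 0.31 for Usp18 and from -0.18 to 0.20 for Irf8. From 18 h to 72 h it ranged from -8.06 to -6.84 for Apol6, from -2.53 to -0.95 for Apol9a, from -1.67 to -0.01 for Apol9b, from -2.11 to -1.30 for Apol7a, from -2.05 to -1.58 for Apol10a and from -10.07 to -4.71 for Apol10b. The Apol6 values and the -10.07 of Apol10b (without 72h-αGal replicate 1) set a 72 h group at 0 against 18 h. They are fitted values and no bounds. Apol6 without control 2 and Apol10b without 72h-αGal replicate 1 gave no value at 72 h against control, having no counts left. In reversals at 72 h and in lost calls the cause was not tested.

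Replicate numbers recur in the groups but name different mice. Over 9 pairs with the same number, the correlation of deviations from the group means was -0.150 to 0.115, and 3 of 9 libraries correlated best with their own number, so the numbers do not pair the samples. A replicate block lowered the genes called from 1128 to 781 at 18 h, from 5 to 1 at 72 h against control and from 1936 to 1371 from 18 h to 72 h. It left the count of members called at 1, 0 and 1, the receptor and signalling genes called from 18 h to 72 h went from 8 to 5, and Apol10c-ps lost its call from 18 h to 72 h (-3.16), as it also did without a filter on low counts (-3.21), and Igtp its call at 18 h (4.86). Over all alternatives the genes called went from 432 (without 18h-αGal replicate 2) to 1657 (DESeq2) at 18 h, with 593 when only the 2 groups were fitted, from 0 (without control 1, 72h-αGal replicate 1 or 72h-αGal replicate 3) to 30 (DESeq2) at 72 h against control, with 3 in limma, and from 831 (without 72h-αGal replicate 3) to 2593 (without control 3) from 18 h to 72 h. The share of 50-base words found in other genes was 3.43% for Apol6, 14% for Apol7a, 16.5% for Apol9a, 51% for Apol9b, 47.9% for Apol10a and 6.44% for Apol10b. Depth limits Apol6, Apol9b and the 72 h value of Apol10b, where a floor of 3 counts was 1.76 to 7.13 normalised counts.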

Other observations

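The plasma apolipoproteins, which share a name with the Apol genes but package lipid for transport, were read in the same fit. Of 13 listed, 10 were tested, and edgeR's quasi-likelihood test called 0 in any of the 3 comparisons. At 18 h 1 was at an unadjusted p under 0.05, against 20.8% of all genes. It was 0 at 72 h against control (5.94% of all genes) and 1 from 18 h to 72 h (24.3%). Their median log2 difference was -0.20 at 18 h. Apoa4 and Apob, which enterocytes use to build chylomicrons, differed by -0.84 ± 0.61 and -0.52 ± 0.45 at 18 h, and Clu by -1.74 ± 0.79 (adjusted p = 0.221). The summed markers of crypt stem and cycling cells were 36265 to 64742 in controls, 18848 to 41370 at 18 h and 46238 to 65905 at 72 h, and those of villus enterocytes were 32381 to 64201, 35993 to 67584 and 22686 to 39699.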
